A study of Mus musculus and Homo sapiens with 12 samples.

Results

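The smooth muscle genes Myh11, Acta2, Actg2, Des, Tagln, Cnn1, Lmod1, Mylk, Synpo2 and Myocd were followed through every CUT&Tag peak list of mouse large intestine and of the human colon cell line CCD841. They are 10 of the 21887 protein-coding genes placed on the mouse chromosomes (RefSeq, GRCm38) and, under the same names in upper case, 10 of the 20033 placed on the human chromosomes (GENCODE 44, GRCh38). The genes were taken by name, and for each one all peaks overlapping the gene or the 10 kb on either side of it were collected, whatever their strength. CUT&Tag cuts and tags DNA near an antibody bound to chromatin, here against butyrylated (Kbu) or acetylated (Kac) lysine at histone H3K18 or H4K12.

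CCD841 is an established line of normal colon cells, labelled as epithelial, and all of its libraries came from cells treated with 1 mM sodium butyrate (NaBu) for 12 to 16 h. It gave 2 libraries for H3K18bu and 2 for H4K12bu, with no untreated library and no Kac library. The mouse libraries came from large intestine of male CETP-ApoB-100 transgenic mice, whose age is not given in the sources used here. The H3K18ac and H4K12ac libraries, 2 of each, are labelled as high fat, high sucrose diet. The H3K18bu and H4K12bu libraries, again 2 of each, carry the same diet label with 5% arabinoxylan added, arabinoxylan being a cereal fiber that gut bacteria ferment to short-chain fatty acids. The study's methods, however, describe the mice without arabinoxylan as kept on a low fat control diet, so that fat and sucrose may have differed as well. The acyl group read by the antibody and the diet therefore changed together between the mouse Kbu and Kac libraries, and their parts in any difference cannot be told apart. The design gives 2 mice per condition. If a condition is a diet, the H3K18 and H4K12 libraries of that diet share mice, and p-values over libraries are too small. In the tests below n counts libraries and not mice, and 2 mice against 2 could not give an exact permutation p below 0.333.

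Smooth muscle shortens when myosin pulls on actin filaments, and the pull is switched on by calcium through calmodulin and myosin light chain kinase, which phosphorylates the light chain of myosin. The genes of this machinery are turned on together by serum response factor, which binds the CArG box, and by its partner myocardin. In the large intestine these cells form the muscle layers of the wall and of the blood vessels, and the epithelium lies inside them. The tissue is labelled as colon epithelium, while the study's methods describe dissected large intestine homogenised, with no step that separates its layers. In such a bulk sample fewer nuclei of a cell type and less of a mark in each nucleus cannot be told apart.

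The sequences below were chosen to show where the butyryl marks of CCD841 cells lay at these genes: over the bases before the start of ACTA2 and of LMOD1, outside the printed bases before the start of ACTG2, and within an intron of MYLK. The human sequences were read from the GRCh38 genome, for ACTA2, ACTG2 and LMOD1 before the start of the canonical GENCODE transcript, and the bases before the start of mouse Lmod1 are from RefSeq (GRCm38.p6). The 250 bases before the start of ACTA2 (chr10:88952774-88953023, minus strand) lay wholly inside regions of both marks. They hold no capitals, as no exact match to the CArG box was found in them. In ACTG2 (chr2:73892758-73892953, plus strand, 250 to 55 bases before the start) capitals mark the exact matches to the CArG box, and no base lay in a region found in both replicates. In LMOD1 (chr1:201946549-201946798, minus strand) and mouse Lmod1 (chr1:135324563-135324812, plus strand) capitals mark the longest run that both species share, 98 bases, and 250 and 204 of the human bases lay in H3K18bu and H4K12bu regions. In the MYLK intron (chr3:123719419-123719619, plus strand, opposite to the gene) capitals mark the 21 bases centred on the summit of the H3K18bu peak of replicate 1.
ACTA2: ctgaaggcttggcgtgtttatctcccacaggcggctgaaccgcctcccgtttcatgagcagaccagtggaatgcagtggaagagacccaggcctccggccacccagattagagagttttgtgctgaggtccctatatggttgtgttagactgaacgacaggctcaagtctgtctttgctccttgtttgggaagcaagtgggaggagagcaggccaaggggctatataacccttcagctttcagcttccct
ACTG2: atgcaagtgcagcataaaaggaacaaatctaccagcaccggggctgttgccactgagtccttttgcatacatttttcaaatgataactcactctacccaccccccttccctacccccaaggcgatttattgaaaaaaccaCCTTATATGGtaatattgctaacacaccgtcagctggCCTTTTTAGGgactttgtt
LMOD1: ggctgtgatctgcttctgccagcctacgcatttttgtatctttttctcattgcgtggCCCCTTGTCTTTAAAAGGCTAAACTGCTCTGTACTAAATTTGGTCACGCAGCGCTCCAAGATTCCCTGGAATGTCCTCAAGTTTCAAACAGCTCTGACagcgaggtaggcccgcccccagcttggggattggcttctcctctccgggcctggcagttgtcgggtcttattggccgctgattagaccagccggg
Lmod1: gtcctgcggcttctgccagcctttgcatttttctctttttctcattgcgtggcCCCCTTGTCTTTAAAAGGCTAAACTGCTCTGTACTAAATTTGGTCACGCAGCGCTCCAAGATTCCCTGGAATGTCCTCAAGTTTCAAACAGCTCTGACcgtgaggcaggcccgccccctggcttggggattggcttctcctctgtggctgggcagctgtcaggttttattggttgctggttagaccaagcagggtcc
MYLK intron: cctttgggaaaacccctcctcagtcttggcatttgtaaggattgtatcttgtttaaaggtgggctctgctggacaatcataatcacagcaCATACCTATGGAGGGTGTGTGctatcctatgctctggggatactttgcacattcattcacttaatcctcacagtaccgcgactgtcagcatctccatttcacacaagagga

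The CArG box, CC(A/T)6GG, was searched by its name alone, as an exact match in the 250 bases before each start. Boxes that differ from this pattern by a base were not counted, so a gene without a match may still hold such a box. Since the pattern reads the same on both strands, a single scan covered both. It was found before 2 of the 10 human genes, ACTG2 at 110 and 73 bases before the start and TAGLN at 156, against 1.12% of the 20033 human starts. It was found before 0 of the 6 mouse genes whose start is in the table, against 1.39% of 17492 mouse starts. The human counterparts of those 6 genes hold no exact match either. Mouse Actg2 and Tagln were not searched here, so the species were not compared at the genes with an exact match. A match is a description of the sequence.

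The lists differed greatly in depth, which must be read beside every count. The CCD841 lists held 299296 to 299720 peaks each, close to the limit of 300000 per list, over lowest local backgrounds of 0.788 to 1.55 overlapping reads. The mouse Kac lists were of the same length (299623 to 299861 peaks) over lowest backgrounds of 0.0608 to 0.147, and the mouse Kbu lists held 50675 to 96432 peaks over a lowest background of 0.0146 in each. The number of overlapping reads at the summit of a peak, called its pileup, was solved from the fold and the p that the peak caller gave. The median pileup was 7 to 15 in the CCD841 lists, 1 or 2 in the Kac lists and 1 in the Kbu lists, where 89.2% to 91.4% of peaks stood on a pileup of 1. The lists hold no read totals, and precision is therefore given by these pileups.

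In the mouse Kac lists the limit of 300000 fell among peaks tied at the lowest p, all with a pileup of 1, which were kept in the order of chromosome names. These tied peaks were 72.1% and 52.0% of the H3K18ac lists and 52.8% and 12.8% of the H4K12ac lists (replicates 1 and 2). They reached 19 of 21 chromosomes in H3K18ac replicate 1, 6 in replicate 2, 5 in H4K12ac replicate 1 and chromosome 1 alone in H4K12ac replicate 2. Lmod1 on chromosome 1 held 8, 32, 20 and 31 tied peaks in the 4 Kac lists, Des on the same chromosome 6, 14, 6 and 0, and Myocd on chromosome 11 held 16, 34, 52 and 0. The other members held such peaks in H3K18ac replicate 1 and in no other Kac list. The main counts and tests from the mouse Kac lists are therefore given with and without the tied peaks, an alternative chosen after seeing the data.

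In CCD841 cells, butyryl marks were found in both replicates at nearly all of the smooth muscle genes. Overlapping peaks of a library were merged to regions, and a stretch covered by regions of both replicates was counted once. H3K18bu had such regions at 9 of the 10 genes, 108 regions in all, and CNN1 had none, while 75.8% of all protein-coding genes had one. All 108 had q below 0.05 in both replicates, and with only the 50000 strongest regions of each library 9 of 10 genes had one, beside 41.1% of all genes. H4K12bu had them at 10 of 10 genes, 99 regions in all, beside 76.6% of all protein-coding genes. Of the 99 regions 72 had q below 0.05 in both replicates, and among the 50000 strongest regions 5 of 10 genes had one, beside 40.2% of all genes. The window of a member had a median of 73.2 kb, against 47.5 kb over all genes, which gives a member more room for a region. Per 10 kb of window the members had a median of 1.03 H3K18bu and 0.950 H4K12bu regions, and all genes had 0.378 and 0.456.

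Most of these regions lay inside the genes and away from their starts. Of the 108 H3K18bu regions, 98 were within the gene and 10 in the flanks, 79 were intronic and 19 touched an exon. Of the 99 H4K12bu regions, 87 were within the gene, 61 were intronic and 26 touched an exon. Regions of both replicates within 1 kb of the canonical start were found for H3K18bu at ACTA2, ACTG2 and LMOD1, 3 of 10 beside 32.7% of all genes. For H4K12bu they were found at ACTA2 and LMOD1, 2 of 10 beside 14.9% of all genes. Per 10 kb of window, 8 of the 10 members lay above the median of all genes for H3K18bu (not MYH11, at 0.287, and CNN1, at 0) and 9 for H4K12bu (not MYH11, at 0.172), while at the starts the shares were near those of all genes.

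The regulator MYOCD, a coactivator of serum response factor, had 16 and 19 H3K18bu regions in replicates 1 and 2, and 19 and 17 H4K12bu regions. In both replicates these overlapped in 9 H3K18bu and 6 H4K12bu regions. The one of lowest p for H3K18bu, chr17:12730765-12731448 in an intron, reached pileups of 26 and 23 for H3K18bu and 31 and 13 for H4K12bu.

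Among the motor genes, MYLK (chr3:123610049-123884332, minus strand), which encodes the kinase of the myosin light chain, held the most regions. MYLK had 74 and 73 H3K18bu regions and 95 and 95 H4K12bu regions, with 41 and 46 in both replicates. Its length is part of this count, so the number per kb was divided by the regions per kb of the whole genome in the same library, here called relative density. A value of 1 is the genome average, and MYLK had 3.68 and 3.34 for H3K18bu and 4.81 and 3.52 for H4K12bu, between the 96.0th and the 96.9th percentile of all genes. MYH11, the myosin heavy chain of smooth muscle, was at the other end. MYH11 had relative densities of 1.26 and 1.01 for H3K18bu and 1.29 and 1.13 for H4K12bu, between the 35th and the 53.7th percentile. The myosin gene thus lay near the median of all genes in the same libraries in which its kinase gene was high, and no value of one overlapped a value of the other.

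Within MYLK, 26 regions were found in all 4 CCD841 libraries, and no other member had more than 11. The region at chr3:123702141-123702484 reached pileups of 54 and 31 for H3K18bu and 68 and 26 for H4K12bu. The region at chr3:123719181-123720142, whose sequence is printed above, reached 33 and 32 for H3K18bu and 60 and 22 for H4K12bu. The region at chr3:123739664-123740936, which touches an exon, reached 44 and 35 and then 40 and 17. All lie inside the gene, far downstream of the canonical start of MYLK at position 123884332. MYLK also makes shorter transcripts, and the annotation places the start of one within 1 kb of the first of these regions.

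Of the thin filament genes, ACTA2, the actin that typifies vascular smooth muscle and myofibroblasts, had marks at its start. ACTA2 had 20 and 13 H3K18bu regions and 17 and 16 H4K12bu regions, and relative densities of 3.83, 2.3, 3.32 and 2.29 in the same order. A region at chr10:88952607-88953197 covered the canonical start, with pileups of 24 and 15 for H3K18bu and 17 and 12 for H4K12bu. STAMBPL1 and FAS, a deubiquitinase and a death receptor gene, overlap the ACTA2 annotation here, and the marks of the genes cannot be told apart. The H3K18bu region in the window whose weaker replicate had the lowest p, chr10:89000624-89001248 with pileups of 22 and 16, lay in FAS, 9285 bp outside ACTA2.

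ACTG2, the actin of enteric smooth muscle, had 7 and 9 H3K18bu regions and 11 and 12 H4K12bu regions, at relative densities of 2.15, 2.55, 3.45 and 2.76. Its H3K18bu region of lowest p touched an exon at chr2:73908332-73908619, with pileups of 15 and 12, and one in an intron at chr2:73894916-73895203 had higher pileups of 18 and 17. Another began at the canonical start, at chr2:73893008-73893358, with 15 and 13. An H4K12bu region farther before that start, at chr2:73891376-73891581, had pileups of 18 and 6. LMOD1, leiomodin, which starts new actin filaments, had 13 and 12 H3K18bu regions and 22 and 18 H4K12bu regions, at relative densities of 2.71, 2.31, 4.68 and 2.80. The region over the LMOD1 start, chr1:201946331-201947061, was found in all 4 libraries with pileups of 20 and 15 for H3K18bu and 14 and 6 for H4K12bu. Thus ACTA2 and LMOD1 were the members with both marks within 1 kb of the canonical start, while ACTG2 had H3K18bu from that start onward, outside the printed bases. When the starts of all annotated transcripts were counted, ACTG2, DES, TAGLN and MYLK also had regions of both marks within 1 kb of a start.

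Of the genes that bind or anchor actin, SYNPO2, whose window is 231 kb long, held more regions than TAGLN (28.1 kb) and CNN1 (31.6 kb). SYNPO2, synaptopodin 2, an actin-bundling protein, had 45 and 44 H3K18bu and 39 and 47 H4K12bu regions, with 25 and 14 in both replicates, and relative densities of 2.85, 2.57, 2.52 and 2.23. The region chr4:119016631-119017457 in an intron reached pileups of 29 and 25 for H3K18bu and 20 and 8 for H4K12bu. TAGLN, transgelin, had 6 and 3 H3K18bu regions and 7 and 7 H4K12bu regions, at relative densities of 3.12, 1.44, 3.71 and 2.72, above SYNPO2 in 3 of the 4 libraries. Its H4K12bu region of lowest p, with pileups of 51 and 20, lay 6360 bp outside it in SIDT2. CNN1, calponin, which restrains myosin, had 0 and 4 H3K18bu regions and 3 and 5 H4K12bu regions, and those shared by the H4K12bu replicates were at ELOF1, a neighbouring gene of transcription elongation. The H3K18bu replicates of CNN1 thus disagreed, with relative densities of 0 and 1.71.

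DES, desmin, the intermediate filament of muscle, had 5 and 3 H3K18bu regions and 4 and 10 H4K12bu regions. A region near the end of the gene at chr2:219425217-219426429 was found in all 4 libraries and reached pileups of 37 and 30 for H3K18bu, against 19 and 8 for H4K12bu. DES had relative densities of 2.58 and 1.43 in the H3K18bu replicates, and in those of H4K12bu 2.1 and 3.85, so that the spread within each mark was as wide as that between them.

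**Figure D1:**
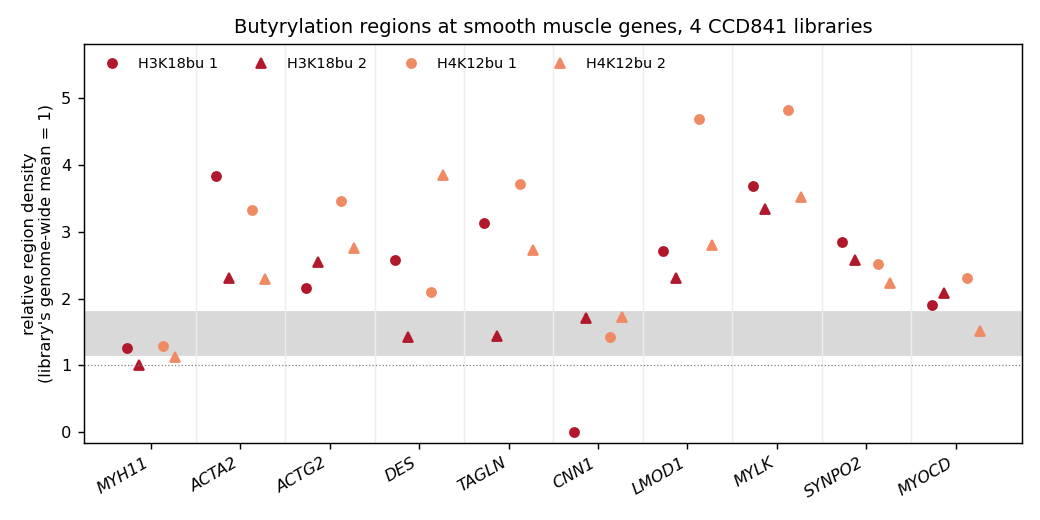
Relative region density (regions per kb in the gene and 10 kb on either side, divided by regions per kb of the genome, no unit) of the 10 smooth muscle genes in the 4 CCD841 libraries, circles for replicate 1 and triangles for replicate 2, with the dotted line at 1 and the grey band over the range of the all-gene medians (1.16 to 1.80). MYLK lies between 3.34 and 4.81 in every library, and MYH11 lies between 1.01 and 1.29.

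Across libraries the median relative density of the 10 members was 2.64 and 2.19 in the H3K18bu replicates, and in those of H4K12bu 2.92 and 2.51. The medians of all genes in the same libraries were 1.16, 1.24, 1.80 and 1.59. A region in all 4 libraries was present at 8 of the 10 members, TAGLN and CNN1 being without one, beside 51.8% of all genes. These were 54 regions, of which SYNPO2 held 11, ACTA2 5, MYOCD 4, ACTG2 and LMOD1 3 each, and DES and MYH11 1 each. Of all regions at the members 55.4% came from a single library, and of all regions in the genome 63.7%.

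Both butyryl marks often shared their places at these genes. Of the 108 H3K18bu regions 52 (48.1%) overlapped an H4K12bu region of both replicates, and genome-wide 34.4% did. Of the 99 H4K12bu regions 52 (52.5%) overlapped an H3K18bu region, and genome-wide 41.8% did. By gene, the overlapping H3K18bu regions were 26 at MYLK, 10 at SYNPO2, 5 at ACTA2 and 0 at TAGLN and CNN1, so that MYLK alone held 26 of the 52.

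**Figure D2:**
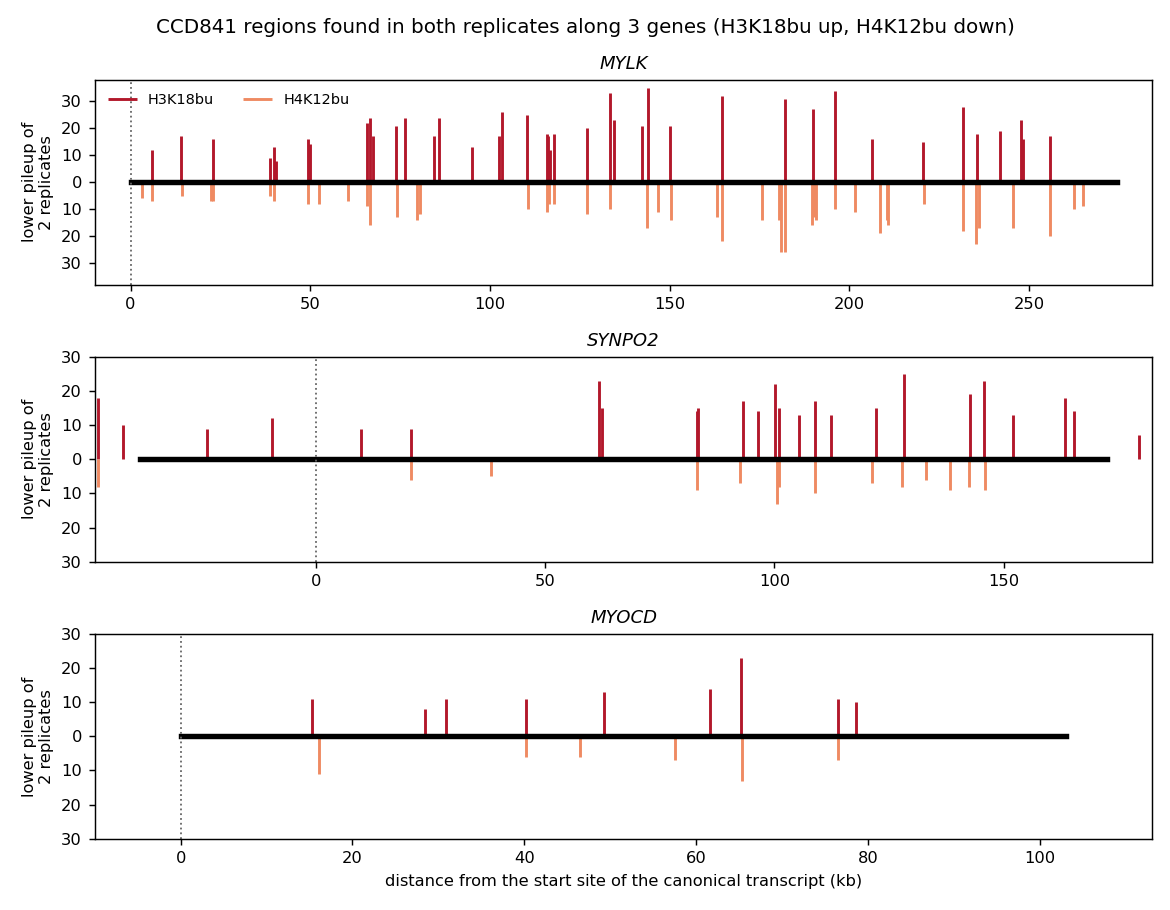
Regions found in both replicates along smooth muscle genes in CCD841 cells, as vertical lines at their distance (kb) from the canonical start, with the lower pileup of the 2 replicates (overlapping reads) upward for H3K18bu and downward for H4K12bu. The genes drawn are MYLK, SYNPO2 and MYOCD. Regions fill the body of MYLK, where 26 places were found in all 4 libraries.

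In mouse large intestine the butyryl marks were found in both replicates at fewer of the smooth muscle genes than in the deeper CCD841 libraries, as they were for all genes. H3K18bu had a region of both replicates at 2 of the 10 genes, Mylk and Synpo2, beside 20.5% of all protein-coding genes (20.4% without tied peaks). H4K12bu had one at 5 of 10, Actg2, Tagln, Cnn1, Mylk and Synpo2, beside 33.7% of all genes, with or without tied peaks. H3K18ac had one at 8 of 10, all but Myh11 and Actg2, beside 58.7% of all genes, and without tied peaks at 3 of 10 (Tagln, Mylk and Synpo2) beside 45% of all genes. H4K12ac had one at 9 of 10, all but Cnn1, beside 61.4%, and without tied peaks at 7 of 10 beside 58.2%. For H3K18bu the share of the members was thus that of all genes, and for H3K18ac it lay above or below it depending on the tied peaks. For H4K12bu it was somewhat higher, with the regions at Actg2, Tagln and Cnn1 lying in neighbouring genes. Over the gene alone it was 2 of 10 beside 23.2%, near the share of all genes. The member windows had a median of 53.3 kb and those of all genes 37.2 kb.

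The places of the mouse butyryl regions were partly those of neighbouring genes. At Actg2, H4K12bu was found at chr6:83506627-83507217 with pileups of 4 and 6, the butyryl region of lowest p of any member, and it lay 5692 bp outside Actg2 in Dguok, a kinase gene of mitochondrial nucleotide metabolism. At Tagln, H4K12bu was found at chr9:45943576-45944341 with pileups of 3 and 3, 7518 bp outside the gene in Sidt2, which encodes a lysosomal membrane protein. At Cnn1 the H4K12bu region lay in Elof1, 7878 bp outside, with pileups of 1 and 2. Those inside a member, in Mylk and Synpo2, had a single read at the summit in a replicate or in both, for either mark. Counted over the gene alone, H3K18bu regions were found at 2 of 10 genes beside 13.9% of all genes, and H4K12bu regions at 2 of 10 beside 23.2%. When peaks of pileup 1 were left out, H3K18bu regions were found at 0 of 10 members beside 3.84% of all genes, and H4K12bu regions at 2 of 10 beside 8.33%.

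The acetyl regions gave higher pileups at some members. In Synpo2 the H3K18ac region at chr3:123065924-123066675, 9844 bp outside the gene, reached 15 and 16, and one at chr3:123074957-123075587, 932 bp outside, reached 7 and 7. In Mylk an intragenic region at chr16:34930177-34930385 reached 10 and 8 for H3K18ac. H4K12ac reached 4 and 6 inside Tagln at chr9:45933031-45933472, 3 and 4 just past Des at chr1:75369366-75370084, and 3 and 6 inside Mylk at chr16:34998551-34999029. These held no tied peaks, whereas all H3K18ac regions of both replicates at Acta2, Des, Cnn1, Lmod1 and Myocd had a tied peak of pileup 1 in a replicate.

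At the 6 mouse members with a start in the table, Acta2, Des, Cnn1, Lmod1, Mylk and Synpo2, regions of both replicates within 1 kb of it were rare. H3K18bu and H4K12bu had 0 of 6, beside 6.51% and 16% of all genes with a start. H3K18ac had 1 of 6 (Des) beside 22.5%, and H4K12ac had 1 of 6 (Lmod1) beside 26.4%. Both of these rested on tied peaks, and without them 0 of 6 remained for either mark, beside 16.8% and 25.3% of all genes. The LMOD1 start, which carried both marks in CCD841 cells, shares the 98 printed bases with mouse Lmod1, where no butyryl peak was found within 1 kb in any of the 4 Kbu libraries.

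Few mouse regions recurred across marks. A region in at least 6 of the 8 libraries was found at 3 of the 10 members, Tagln, Mylk and Synpo2, beside 28.2% of all genes, and without tied peaks at Tagln and Mylk, 2 of 10 beside 26.3%. The Tagln window held the one found in 7 libraries, the region in Sidt2, with pileups of 2 and 4 for H3K18ac, 5 and 11 for H4K12ac, 0 and 1 for H3K18bu and 3 and 3 for H4K12bu. The region at chr16:34930078-34930610 in Mylk had 10 and 8 for H3K18ac, 5 and 3 for H4K12ac, 0 and 1 for H3K18bu and 0 and 3 for H4K12bu. At both places the highest pileup was that of an acetyl mark, although the Kac libraries were also the deeper ones. Of the 618 regions at the members 80.1% came from a single library, as did 81.3% of all regions, and without tied peaks 77.3% of 362 did and 79.3% of all regions.

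To ask whether the members differed between Kbu and Kac beyond the lengths of the lists, relative density was compared between the 4 Kbu and the 4 Kac libraries by a two-sided exact permutation test. Taken as separate samples, 4 against 4 libraries allow no p below 0.0286, and with Benjamini-Hochberg adjustment over all 21887 genes no gene had an adjusted p below 0.195. If the libraries of a diet come from 2 mice, as raised above, these p-values are too small. The test called 0 members at an adjusted threshold of 0.05, and 3 at an unadjusted p below 0.05. The difference (Kbu minus Kac) had a median of -0.0851 over the 10 members and of 0.178 over all genes, and without tied peaks of -0.244 and 0.

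Mylk and Synpo2 had higher relative densities in every Kbu library than in any Kac library, 2 of 10 members beside 11.2% of all genes. Mylk had 2.1 and 4.46 for H3K18bu and 2.12 and 2.14 for H4K12bu, against 1.81 and 1.15 for H3K18ac and 0.754 and 0.989 for H4K12ac. The means were 2.71 ± 1.17 and 1.18 ± 0.452 (SD, n = 4 each; exact permutation p = 0.0286, adjusted p = 0.195). Synpo2 had 2.24 and 2.39 for H3K18bu and 2.08 and 1.89 for H4K12bu, against 1.62, 1.12, 0.708 and 1.22 in the Kac libraries. Its means were 2.15 ± 0.217 and 1.17 ± 0.376 (SD, n = 4 each; exact permutation p = 0.0286, adjusted p = 0.195). Without tied peaks the Kbu and Kac libraries overlapped for both genes, with differences of 0.626 for Mylk and 0.204 for Synpo2 (exact permutation p = 0.514 for each), and 0 of 10 members were higher in all Kbu libraries beside 3.38% of all genes. At a pileup of at least 2 the differences turned to -0.903 for Mylk and -1.34 for Synpo2, and at q below 0.05 to -1.67 and -2.64.

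Lmod1 was lower in every Kbu library than in any Kac library, 1 of 10 members beside 3.5% of all genes. It had 0.708 and 0 for H3K18bu and 0 and 0.894 for H4K12bu, against 1.59, 5.05, 3.45 and 5.35 in the Kac libraries, H3K18ac first (means 0.4 ± 0.469 and 3.86 ± 1.73, SD, n = 4 each; exact permutation p = 0.0286, adjusted p = 0.195). As given above, Lmod1 lies on the chromosome where all 4 Kac lists kept tied peaks. Without them its means were 0.402 and 1.17, still without overlap (exact permutation p = 0.0286, adjusted p = 0.549). Acta2 then also stood lower in every Kbu library, with means of 1.10 and 2.65 (same p and adjusted p), so that 2 of 10 members were higher in all Kac libraries beside 1.83% of all genes.

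Des and Myocd spread widely in the Kac libraries, and Des did so between the Kbu libraries as well. Des had 0, 0, 1.89 and 2.00 in the Kbu libraries (H3K18bu, then H4K12bu) and 2.26, 5.48, 2.57 and 1.29 in the Kac libraries (exact permutation p = 0.143, adjusted p = 0.428), and its H4K12bu values lay above the all-gene medians of 1.48 and 1.55. Myocd had 0.385, 0, 0 and 0.728 against 1.25, 2.90, 4.45 and 0.707 (exact permutation p = 0.0571, adjusted p = 0.285). The groups overlapped in both genes, and without tied peaks the differences shrank from -1.93 to -0.535 for Des and from -2.05 to -0.254 for Myocd. Myh11, Acta2, Actg2, Tagln and Cnn1 overlapped as well, with exact permutation p between 0.314 and 0.943. Within the residues some of these differences (Kbu minus Kac) had opposite signs: Actg2 had -0.535 for H3K18 and 1.68 for H4K12, Cnn1 -0.621 and 3.19, Tagln -1.23 and 1.02, Myh11 -0.859 and 0.725, and Des -3.87 and 0.0124. Without tied peaks the signs stayed opposite for Actg2 (-1.12 and 0.655), Cnn1 (-0.438 and 2.55), Tagln (-2.76 and 0.0501) and Des (-1.6 and 0.525), and for Myh11 both were below 0. The signs of Synpo2 became opposite without tied peaks (-0.13 for H3K18 and 0.538 for H4K12). With all peaks, the libraries within H4K12 did not overlap for 4 members higher in Kbu (Actg2, Cnn1, Mylk and Synpo2, beside 31.7% of all genes) and 1 higher in Kac (Lmod1, beside 12.5%). Within H3K18 they did not overlap for 2 higher in Kbu (Mylk and Synpo2, beside 21.9%) and 5 higher in Kac (Acta2, Des, Tagln, Lmod1 and Myocd, beside 18.5%). Without tied peaks Mylk, Synpo2 and Myocd overlapped within H3K18. Acta2, Des, Tagln and Lmod1 stayed higher in Kac there, and Actg2 joined them. Within H4K12 Actg2 then overlapped, Cnn1, Mylk and Synpo2 stayed higher in Kbu, and Des joined them. Lmod1 stayed higher in Kac, and Acta2 and Myocd joined it. Shares of all genes within residues were counted for all peaks only. The calls without tied peaks therefore have no such share beside them and cannot be read as a trait of the members. With 2 libraries against 2 no exact permutation test can go below p = 0.333, and whether the residues differ in this was not tested. In the shallow Kbu libraries 2 and 6 of the 10 members had no region at all for H3K18bu, where 36.7% and 42% of all genes had none. For H4K12bu it was 3 and 0 of the 10 members, and 33.5% and 21.9% of all genes.

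**Figure D3:**
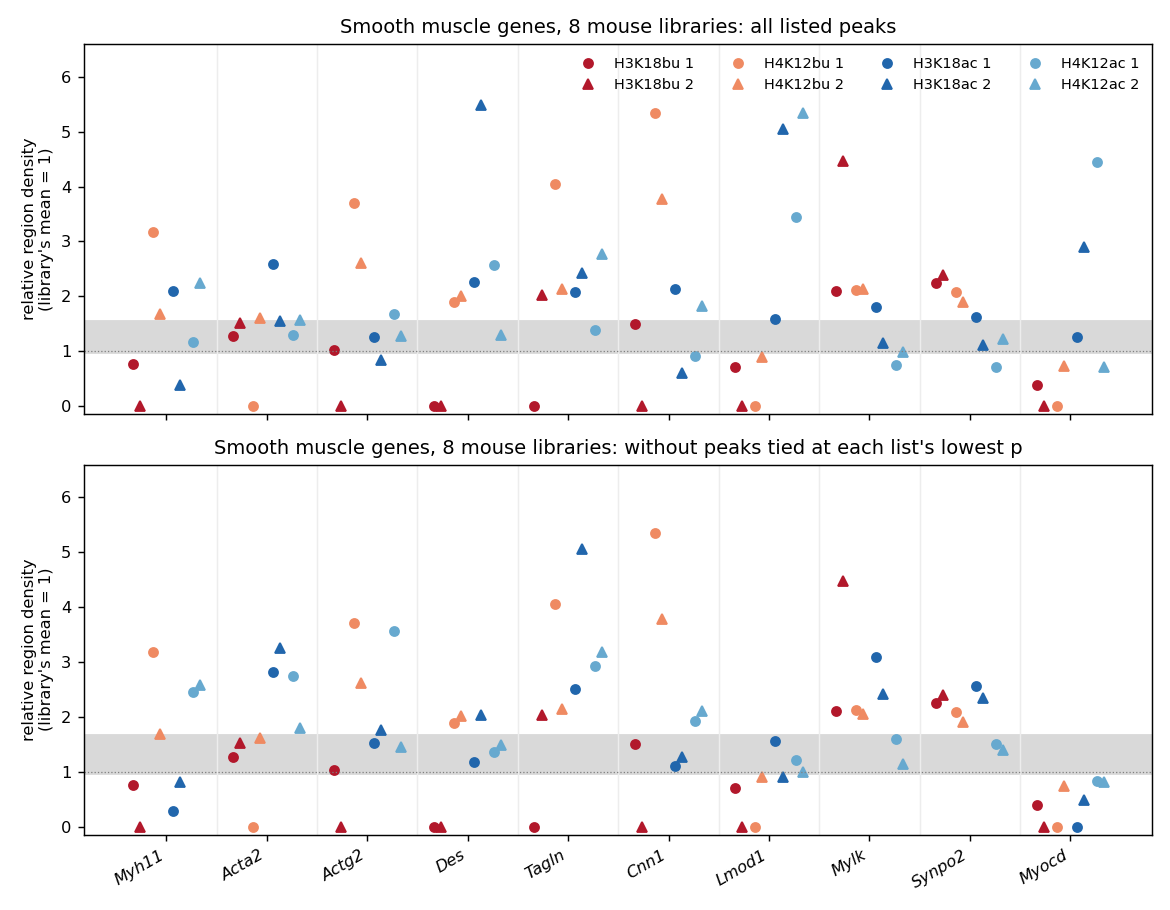
Relative region density (no unit) of the 10 smooth muscle genes in the 8 mouse libraries, by mark, circles for replicate 1 and triangles for replicate 2, with the dotted line at the genome average of 1 and the grey band over the range of the all-gene medians. The upper panel uses all listed peaks, and the lower panel leaves out the tied peaks. With all peaks Mylk and Synpo2 lie higher in all 4 Kbu libraries (1.89 to 4.46) than in the Kac libraries, and Lmod1 lies lower (0 to 0.894). Without tied peaks the Kbu and Kac libraries overlap for Mylk and Synpo2, and Lmod1 still lies lower.

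Between residues, the 4 H3K18 libraries of both acyl groups were compared in the same way with the 4 H4K12 libraries. Actg2 was higher in every H4K12 library, 1 of 10 members beside 1.74% of all genes, and 0 members were higher in every H3K18 library beside 0.594% of all genes. Actg2 had 1.03 and 0 for H3K18bu and 1.26 and 0.842 for H3K18ac, against 3.70 and 2.61 for H4K12bu and 1.68 and 1.27 for H4K12ac. The means were 0.784 ± 0.550 and 2.31 ± 1.08 (SD, n = 4 each; exact permutation p = 0.0286, adjusted p = 1). No gene passed the adjusted threshold, and 1 member had an unadjusted p below 0.05. Part of the Actg2 count came from the region in Dguok described above.

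Without tied peaks the genes whose residues did not overlap were others. Myh11 (0.464 against 2.48) and Cnn1 (0.967 against 3.29) were then higher in every H4K12 library, 2 of 10 beside 5.87% of all genes. Synpo2 (2.39 against 1.72) was higher in every H3K18 library, 1 of 10 beside 2.34% of all genes. Each had an exact permutation p of 0.0286 and an adjusted p of 0.348. Which members were called between residues thus depended on the tied peaks, as it did between Kbu and Kac.

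The wider set of smooth muscle genes and the markers of other gut cells were counted by the same rule, as the share of genes with a region in both replicates. Of 40 other smooth muscle genes (serum response factor, tropomyosins, ion channels and receptors among them), 34 had one for H3K18bu in CCD841 cells, beside 75.8% of all genes, and 37 for H4K12bu, beside 76.6%. In mouse intestine 16 of 40 had one for H3K18bu (20.5% of all genes), 16 for H4K12bu (33.7%), 31 for H3K18ac (58.7%) and 33 for H4K12ac (61.4%), and without tied peaks 28 and 31 for the acetyl marks (45% and 58.2%). Their windows were longer than those of all genes, with medians of 100 kb against 47.5 kb in human and 71.3 kb against 37.2 kb in mouse. Those of lowest p in CCD841 cells were KCNMA1, CACNA1C and LPP for H3K18bu and KCNMA1, ACTN1 and PPP1R12A for H4K12bu. KCNMA1, the calcium-activated potassium channel that lets smooth muscle relax, held 94 and 81 regions of both replicates, counts not divided by the length of its window. In mouse, Itpr1, the calcium release channel of the internal store, was among those of lowest p for both butyryl marks, with Kcnma1 for H3K18bu and Lpp for H4K12bu. For the acetyl marks Itpr1, Kcnma1 and Lpp led for H3K18ac, and Lpp, Itpr1 and Chrm3, a muscarinic receptor that starts contraction, for H4K12ac.

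Markers of other cells showed what else these windows hold in the same libraries. Of 20 epithelial genes 16 had a region of both replicates for H3K18bu and 13 for H4K12bu in CCD841 cells, led by KRT19, KRT8 and VIL1 and by GRHL2, KRT8 and KRT19. KRT18, CLDN7, SLC26A3 and ESRP1 had none for H3K18bu. For H4K12bu CDH1, KRT20, CDX2, CLDN7, ELF3, HNF4A and ESRP1 had none, although CDH1, CDX2 and HNF4A, defining genes of colon epithelium, had H3K18bu regions of both replicates. Of 18 fibroblast and mesenchymal genes 18 and 15 had one, led by COL3A1, CDH2 and SPARC for H3K18bu and by FAP, CDH2 and FN1 for H4K12bu. Per 10 kb the medians were 1.03 and 0.950 for the 10 members (H3K18bu, then H4K12bu), 0.817 and 0.413 for the fibroblast genes and 0.492 and 0.167 for the epithelial genes. They were 1.04 and 0.354 for endothelial genes, 0.984 and 0.483 for genes of interstitial cells of Cajal, 0.583 and 0.662 for the 40 other smooth muscle genes and 0.638 and 0.365 for immune genes, so the H3K18bu median of the members lay near those of the endothelial and interstitial cell genes. Striated muscle genes had medians of 0.435 and 0.188, and genes of enteric neurons and glia 0.537 and 0.0884. These marks measure chromatin and not transcripts, and the labelled cell type was not tested by them.

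In mouse intestine a larger share of the epithelial genes than of the smooth muscle genes had butyryl regions when all peaks were used, and for H4K12bu this did not hold for stronger peaks. Of 20 epithelial genes 15 had an H3K18bu region of both replicates and 14 an H4K12bu region, against 2 and 5 of the 10 members, although epithelial windows were shorter (median 36.2 kb). At a pileup of at least 2 the counts were 5 of 20 against 0 of 10 for H3K18bu and 4 of 20 against 2 of 10 for H4K12bu, and at q below 0.05 they were 1 against 0 and 0 against 1. Of all genes, 20.5% had an H3K18bu region and 33.7% an H4K12bu region with all peaks. These shares were 3.84% and 8.33% at a pileup of at least 2, and 0.498% and 1.7% at q below 0.05. The epithelial genes were led by Lgals4, Slc26a3 and Epcam for H3K18bu and by Epcam, Elf3 and Ocln for H4K12bu. For H3K18ac 19 of 20 epithelial genes had one and for H4K12ac 15 (18 and 14 without tied peaks), led by Vil1, Grhl2 and Cdx2 and by Krt18, Ocln and Lgals4. Of 18 fibroblast genes 2 and 4 had a butyryl region (H3K18bu, then H4K12bu; 1 and 3 without tied peaks), of 20 striated muscle genes 2 and 1, and of 10 genes of enteric neurons and glia 0 and 0. The difference between the lists was not tested.

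**Figure D4:**
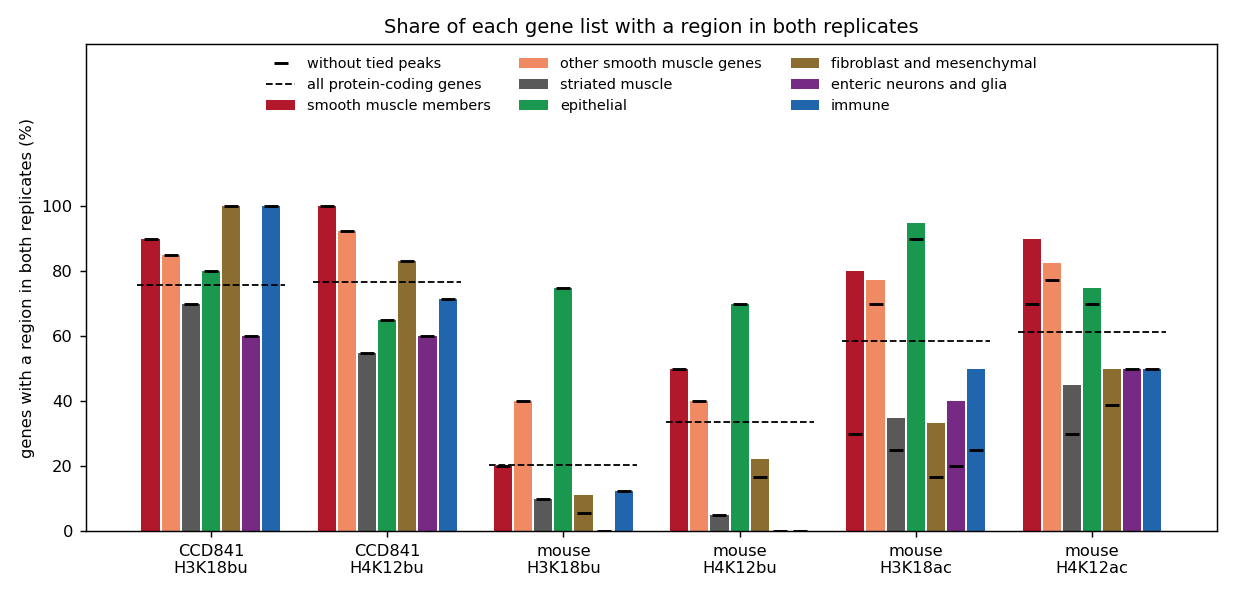
Percent of the genes of each list with a region in both replicates, by mark, for the 10 smooth muscle genes and the longer marker lists, with bars for all peaks, black ticks without tied peaks and dashed lines at the percent of all protein-coding genes. In mouse Kbu libraries epithelial genes (15 and 14 of 20) stand above the line. The 10 smooth muscle genes stand on it for H3K18bu (2) and above it for H4K12bu (5), where regions in neighbouring genes are counted. In CCD841 cells the smooth muscle genes (9 and 10 of 10) stand above it.

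The remaining lists were small or of cells that the muscle wall also holds. Striated muscle genes had regions at 14 and 11 of 20 genes in CCD841 cells (H3K18bu, then H4K12bu), led by TNNT2, MYOD1 and MYL2 and by NEB, MYOD1 and TTN. Genes of interstitial cells of Cajal, the pacemakers of gut muscle (KIT, ANO1, ETV1), had them at 3 and 3 of 3 in CCD841 cells, and in mouse at 2 and 1 of 3 for the butyryl marks and 3 and 3 for the acetyl marks. Enteric neuron and glia genes had them at 6 and 6 of 10, endothelial genes at 5 and 5 of 6, and immune genes at 7 and 5 of 7 in CCD841 cells. For the mouse acetyl marks (H3K18ac, then H4K12ac) striated muscle genes had 7 and 9 of 20, fibroblast genes 6 and 9 of 18, neuron and glia genes 4 and 5 of 10, endothelial genes 5 and 2 of 6, and immune genes 4 and 4 of 8. Without tied peaks these were 5 and 6 for striated muscle, 3 and 7 for fibroblast, 2 and 5 for neuron and glia, 2 and 2 for endothelial and 2 and 4 for immune genes. For the mouse butyryl marks endothelial genes had 2 and 2 of 6, and immune genes 1 and 0 of 8. In CCD841 cells a region in both replicates was common over all protein-coding genes (75.8% for H3K18bu and 76.6% for H4K12bu). Striated muscle genes and neuron and glia genes lay below these shares, and endothelial genes above them. In mouse the shares of all genes were 20.5% and 33.7% for the butyryl marks. For the acetyl marks they were 58.7% and 61.4%, and 45% and 58.2% without tied peaks. The counts of the 10 members are to be read beside these.

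The genes whose profile over the 8 mouse libraries was nearest to the mean of the 10 members were Nemf, Lyst, Xrcc6, Baz2b and Zzz3. The distance, Euclidean on log2 of relative density plus 0.5 over 8 libraries, was 0.646 for Nemf and 0.768 to 0.804 for the other 4. The members themselves lay farther from their own mean, from 1.80 for Actg2 to 3.19 for Lmod1. Between 5.42% and 48.9% of all genes were nearer to that mean than a given member. The farthest, Lmod1 and Myocd (2.99), are members with many tied peaks. Without tied peaks the members lay from 1.77 (Actg2) to 3.49 (Myocd) from their mean, Lmod1 at 2.53, and 6.51% to 52.2% of all genes were nearer than a given member. The nearest genes were then Stab2, Itga1, D5Ertd579e, Mef2c and Xpo6, at 0.38 to 0.601, so the genes named depend on the tied peaks.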

How the data were processed

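CUT&Tag peak lists of 12 libraries were analysed, 4 of CCD841 cells and 8 of mouse large intestine, with 2 replicates per mark. Per the labels, the authors trimmed reads with cutadapt 1.9.1, aligned them with Bowtie2 2.3.1 to hg38 or mm10, and called peaks with MACS2 2.1.0 in each library on its own, at p below 0.01 and at most 300000 peaks. Each deposited peak carries the fold ratio of (pileup + 1) over (local background + 1) of the same library, as the authors' peak caller wrote it. Of the deposited significance values, −log10 p and its adjusted form −log10 q, both came from the authors' peak caller and refer to that background. No control library is named, and the lists hold no read counts, so no count model was fitted.

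Pileup and background were solved from fold and p (tolerance 0.01 in −log10 p), peaks were merged to regions per library, and regions of both replicates were required to overlap by 1 bp or more. Relative density was tested by a two-sided exact permutation of the 4 against 4 libraries (70 assignments) for each of 21887 genes, with Benjamini-Hochberg adjustment, and the procedure was tested on simulated data. Genes were placed with RefSeq (GRCm38) and GENCODE 44 (GRCh38), and sequences were read with samtools 1.23.1. Computations used SciPy 1.17.1, pandas 2.3.3 and NumPy 2.4.6 under Python 3.11.15. The text names all 10 members, the 3 genes of each marker list with the highest lower-of-replicates −log10 p per mark, and the 5 mouse genes nearest to the members' mean profile, except that some genes the rule names are not reported here. The human list of immune genes held 7 of 8, Lyz2 having no human gene of that name. The members and lists were chosen with earlier results of these data known. Alternatives were q below 0.05, the 50000 strongest regions, flanks of 0 or 25 kb, a stricter overlap, covered length, single libraries left out, single residues, a replicate block, and, added after seeing the data, no tied peaks and a pileup of at least 2. The labels give libraries of different marks the same replicate numbers, and nothing in them says which libraries come from 1 mouse. Nothing says that the CCD841 replicates were separate cultures.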

Additional observations from a re-analysis of the deposited data

How the results depend on the processing

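The lists limit what can be read: mouse Kbu regions mostly rest on single reads, read totals are not in the lists, an exact permutation of 2 against 2 libraries cannot go below p = 0.333, and the Kac lists end within tied peaks. Of the counts of members with a region in both replicates, 33 under other settings stayed within 1.5 times the values reported and 15 did not, leaving out replicates aside. Those follow, of 10 members, with the percent of all genes in parentheses. At q below 0.05 the count was 0 for mouse H3K18bu (0.498%), 1 for H4K12bu (1.7%), 2 for H3K18ac (16.5%) and 3 for H4K12ac (16.8%). With the 50000 strongest regions it was 5 for CCD841 H4K12bu (40.2%), 3 for mouse H4K12bu (21.7%), 3 for H3K18ac (27%) and 3 for H4K12ac (24.1%). Over the gene alone it was 2 for mouse H4K12bu (23.2%) and 5 for H3K18ac (42.3%), and with 25 kb flanks 4 for mouse H3K18bu (28%). Without tied peaks it was 3 for H3K18ac (45%), and at a pileup of at least 2 it was 0 for mouse H3K18bu (3.84%), 2 for H4K12bu (8.33%) and 3 for H3K18ac (45%). In single libraries, where no second replicate is asked for, it was 4 to 8 for mouse H3K18bu (4 without replicate 1, beside 58% of all genes, and 8 without replicate 2, beside 63.3%) and 7 to 10 for H4K12bu (10 without replicate 1, beside 78.1%, and 7 without replicate 2, beside 66.5%).

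Members higher in all Kbu libraries, 2 as reported, were 0 at q below 0.05 (0.137% of all genes), with the 50000 strongest regions (0.576%), without tied peaks (3.38%) and at a pileup of at least 2 (2.27%), and 4 within H4K12 (31.7%). Members higher in all Kac libraries, 1 as reported, were 2 at q below 0.05 (9.62% of all genes), 0 with the 50000 strongest regions (0.324%), 2 with 25 kb flanks (3.58%), 2 without tied peaks (1.83%), 4 at a pileup of at least 2 (23.9%) and 5 within H3K18 (18.5%), and 1 to 3 when libraries were left out (2 without H4K12bu replicate 2, beside 7.04%, and 3 without H4K12ac replicate 2, beside 5.41%). With a library left out the smallest exact permutation p is 0.0571. Fewer peaks enter under q, the strongest regions and the pileup, and the cause of the other changes was not tested.

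The Kbu minus Kac difference over both residues turned its sign in 16 cases, and within 1 residue in 5 more: Myh11 (0.725), Tagln (1.02) and Des (0.0124) within H4K12, and Actg2 (-0.535) and Cnn1 (-0.621) within H3K18. At q below 0.05 it was 24.5 for Tagln, -0.381 for Cnn1, -1.67 for Mylk and -2.64 for Synpo2. With the 50000 strongest regions it was 0.347 for Myh11, -0.314 for Actg2 and -0.303 for Synpo2. Over the gene alone it was 0.599 for Acta2 and -0.771 for Actg2, with 25 kb flanks 0.139 for Acta2 and 0.904 for Tagln, by covered length 1.40 for Tagln, and without tied peaks -0.235 for Actg2. At a pileup of at least 2 it was 4.98 for Tagln, -0.903 for Mylk and -1.34 for Synpo2. Leaving out single libraries gave -0.659 to 0.402 for Myh11, -0.0481 to 1.19 for Actg2 and -0.767 to 0.582 for Tagln.

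The H3K18 minus H4K12 difference turned its sign for Acta2 at q below 0.05 (-0.534), for Des over the gene alone (0.278), with 25 kb flanks (0.157) and at a pileup of at least 2 (0.0857), for Tagln and Cnn1 over the gene alone (0.00181 and 1.10), and for Lmod1 at q below 0.05 (0.378), without tied peaks (0.0167) and at a pileup of at least 2 (0.0635). Leaving out single libraries gave -1.19 to 0.642 for Des, -1.66 to 0.388 for Lmod1 and -0.926 to 0.656 for Myocd. With a replicate block the lowest adjusted p of all genes was 0.305 for Kbu against Kac and 1 between residues, where the smallest p is 0.0556, and the differences did not change. Deviations of same-numbered libraries correlated between -0.309 and 0.0116 across genes, so the numbers were not shown to pair libraries.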

Other observations

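The marker lists of the other cells of the gut wall were led by few genes, chosen by the strength of their weaker replicate. In CCD841 cells the interstitial cell genes ANO1, a chloride channel, ETV1 and KIT held 22, 10 and 13 H3K18bu regions of both replicates and 25, 4 and 5 H4K12bu regions. Among endothelial genes VWF, TEK and PECAM1 led for H3K18bu with 20, 15 and 12 regions, and TEK, VWF and EMCN for H4K12bu with 15, 10 and 10. Among genes of neurons and glia CHAT, S100B and RET led for H3K18bu and RET, CHAT and ELAVL4 for H4K12bu, with 1 to 8 regions each. Among immune genes PTPRC, CD79A and CSF1R led for H3K18bu and CSF1R, PTPRC and CD79A for H4K12bu.

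In mouse intestine S100a4 and Pdgfrb were the fibroblast genes with H3K18bu regions, 2 and 1 of them, and Fn1, S100a4 and Col1a1 led for H4K12bu. For the acetyl marks Fap, Col1a1 and S100a4 led for H3K18ac and Fn1, Prrx1 and Col1a1 for H4K12ac. Tnni2 and Myl1 were the striated muscle genes with an H3K18bu region and Mybpc3 the one with an H4K12bu region, and for the acetyl marks Myl1, Myog and Tnni2 led for H3K18ac and Ttn, Myl1 and Myh7 for H4K12ac. Ano1 and Kit had 2 H3K18bu regions each and Ano1 had 2 H4K12bu regions, and with Etv1 they held 10, 3 and 7 for H3K18ac and 4, 3 and 5 for H4K12ac (9, 2 and 1, and 4, 3 and 2, without tied peaks). Pecam1 and Vwf were the endothelial genes with butyryl regions for both marks. Vwf, Pecam1 and Kdr led for H3K18ac, and Vwf and Tek were those with H4K12ac. Itgam was the immune gene with an H3K18bu region. Itgam, Lyz2 and Cd3e led for H3K18ac and Ptprc and Csf1r for H4K12ac, and among neuron and glia genes Ret, Chat and Sox10 led for H3K18ac and Ret, S100b and Gfap for H4K12ac. These orders are from all peaks, and without tied peaks Pdgfrb had 0 H3K18bu regions, Chat, Kdr and Lyz2 had 0 H3K18ac regions and Prrx1 had 0 H4K12ac regions.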
